A study of Macaca fascicularis with 7 samples.

Results

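Integrin subunit transcripts were followed through oocyte maturation in cynomolgus monkeys (Macaca fascicularis). The set held 10 genes, the alpha subunits ITGAV, ITGA2, ITGA4, ITGA5, ITGA6 and ITGA9 and the beta subunits ITGB1, ITGB3, ITGB5 and ITGB8. They were taken by gene name from a deposited table of 28161 usable gene rows, and all 10 were found. The members were chosen by measured values, since the list of names was drawn up with the levels and fold changes of these libraries in view, in all 3 comparisons, so the values of the 10 are a description and support no claim about the family. No p-value is printed for them, and where the count of those past a test threshold is given beside the share of all genes, nothing is read from it, in figures too. The other 16 integrin subunit genes of the table and 4 lists of genes around integrins were put together by function, also with earlier results known, and for them the test results are given.

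All oocytes were labelled wild type. Germinal vesicle (GV) oocytes are immature and arrested before meiosis resumes (2 libraries, labelled control). Metaphase II (MII) oocytes had matured either in the animal (in vivo matured, IVO, 2 libraries, labelled control) or in culture (in vitro matured, IVM, 3 libraries, labelled treated). The labels give no age, no number of oocytes or animals behind a library and no culture recipe, so p-values measure the spread between these libraries, which may be technical. RNA was copied from its poly(A) tail and amplified as full-length cDNA, so a change in tail length can move a count as well as a change in molecules. Where a library pools cells, fewer cells of a type and less RNA per cell cannot be told apart. The 2 GV libraries lie in another folder of the submitters than all MII libraries, so for every GV comparison folder and stage cannot be told apart.

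Integrins are receptors made of 1 alpha and 1 beta chain that span the cell membrane. The outer parts bind matrix proteins such as fibronectin, vitronectin, laminin and collagen, or counter-receptors on other cells, and the short tails bind talin and kindlin, which couple them to actin. ITGB1 pairs with many alpha chains, while ITGB3, ITGB5 and ITGB8 are known as partners of ITGAV. On mammalian eggs integrins have long been studied as candidates for sperm adhesion, with the laminin receptor chain ITGA6 and its partner ITGB1 the best known, and ITGA9 as a binder of sperm surface ADAM proteins.

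Library totals ran from 22901970 to 29245733 counts. Values below are CPM, counts normalised to the library total after TMM scaling, edgeR's trimmed-mean method. All 14 oocyte markers on a fixed list reached 1 CPM in every group, with sums of 8840 to 18200 CPM per library. Blood and immune markers summed to 0 to 1.27 CPM, and CD14, LYZ, PPBP and CD79A were at 0 in every library. Cumulus and granulosa markers summed to 33.3 to 36.2 CPM in GV, 101 to 122 in IVO MII, with 138 to 245 in IVM MII (4, 5 and 4 of 16 found markers at 1 CPM or more). AMH, NR5A1, PTX3 and PTGS2 were at 0 in every library, while TNFAIP6 (55.6 to 149 CPM) and FSHR (21.9 to 53.5 CPM) carried much of the IVM MII sums. HAS2 was higher in IVO MII (38.6 and 39.4 CPM) than in IVM MII (9.72 to 19.5), and CYP19A1 stood at 9.84 and 1.23 CPM in IVO MII and at 0 in IVM MII. Stroma, theca and endothelium markers summed to 1090 to 1220 CPM in GV and 74.0 to 128 in MII libraries (5, 4 and 4 of 13 at 1 CPM or more in GV, IVO MII and IVM MII). VWF gave 991 and 1140 CPM of the GV sums. CDH5 stood at 75.4 and 58.6 CPM in GV and at 10.3 to 55.9 in MII libraries. Over the 7 libraries PECAM1 stood at 9.23 to 30.3 CPM, ACTA2 at 0.424 to 13.4 and COL1A1 at 0.0537 to 2.26. COL3A1, LUM and PDGFRB were at 0 in every library. The part of these other cell types in the integrin results was not tested.

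Of the 10 genes, 8 had counts and 2 had none in any library: ITGB3 (chromosome 16, bases 59077203 to 59132948 of the deposited table, whose build is not given in the sources used here) and ITGB8 (chromosome 3, bases 100321530 to 100406384). A count of 0 allows up to 3 counts of the total, which is 0.0907 to 0.161 CPM in a library, for counting error only. ITGB3 and ITGB8 were therefore not detectable at this depth, before or after maturation. All 8 with counts passed the filter on low counts. ITGA2 had only 12 and 4 counts in GV and passed through its MII libraries, and ITGA5 and ITGB5 had few counts in some MII libraries, so differences in these 3 rest on little data.

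ITGB1, the common beta chain (chromosome 9, bases 33525542 to 33585392, minus strand, 20 exon blocks), was the most abundant of the 10 genes per exon length in GV and IVO MII when group means are compared. It stood at 14.1 and 18.7 CPM in the GV libraries, 102 and 72.2 CPM in IVO MII, with 131, 103 and 129 CPM in IVM MII. The MII libraries all lay above the GV libraries, and the IVM MII libraries lay just above the IVO MII libraries, with 103 against 102 CPM at the boundary. The group means were 16.4 ± 3.21 CPM in GV (SD, n = 2), 87.3 ± 21.4 in IVO MII (n = 2) and 121 ± 15.5 in IVM MII (n = 3). The log2 fold change was 2.41 (SE 0.37) for IVO MII over GV, 2.88 (SE 0.36) for IVM MII over GV and 0.47 (SE 0.33) for IVM over IVO MII.

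ITGB5, a vitronectin receptor chain (chromosome 2, bases 147244637 to 147371038), was scarce and showed another order. It had 38 and 63 counts in GV, 0 and 4 in IVO MII, with 38, 35 and 20 in IVM MII. Levels were 1.15 and 1.99 CPM in GV, 0 and 0.154 in IVO MII, with 2.04, 1.48 and 0.752 in IVM MII. The IVO MII libraries lay below all others, and GV and IVM MII overlapped. On the log2 scale ITGB5 differed by -4.19 (SE 1.45) for IVO MII over GV, -0.14 (SE 1.11) for IVM MII over GV and 4.05 (SE 1.40) for IVM over IVO MII, and the sizes of the differences from IVO MII rest on its 4 counts, which are all in replicate 2.

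ITGAV, the alpha chain of the RGD-binding receptors (those that recognise an arginine-glycine-aspartate motif) for vitronectin and latent TGF-beta, had the largest difference of the 10 genes between GV and MII. The gene lies on chromosome 12, bases 75632776 to 75725519, plus strand, in 30 exon blocks. It had 5 and 16 counts in the GV libraries, against 1036 and 480 in IVO MII, with 653, 686 and 349 in IVM MII. Levels were 0.151 and 0.506 CPM in GV, 52.8 and 18.5 CPM in IVO MII, with 35.0, 29.0 and 13.1 CPM in IVM MII. GV lay apart from all MII libraries, while the IVO and IVM MII libraries overlapped and spread widely within each group. The log2 fold change was 6.75 (SE 0.92) for IVO MII over GV, 6.27 (SE 0.88) for IVM MII over GV and -0.47 (SE 0.63) for IVM over IVO MII. The last value was 0.47 without IVO MII replicate 1 and -1.13 without IVO MII replicate 2, so its sign rests on 1 library.

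ITGA5, the alpha chain of the classical fibronectin receptor (chromosome 11, bases 53318451 to 53342696), was the 1 alpha chain of the set whose mean was highest in GV. It had 63 and 84 counts in GV, 0 and 45 in IVO MII, with 8, 6 and 1 in IVM MII. In CPM these were 1.91 and 2.66, then 0 and 1.74, then 0.429, 0.254 and 0.0376. The GV libraries lay above all MII libraries, and the IVO MII libraries lay on either side of the IVM MII libraries. On the log2 scale ITGA5 differed by -1.38 (SE 1.70) for IVO MII over GV, -3.25 (SE 1.59) for IVM MII over GV and -1.87 (SE 1.57) for IVM over IVO MII. The last value was 5.56 without IVO MII replicate 2 and -2.86 without IVO MII replicate 1, so its sign rests on 1 library. For IVO MII over GV the value was -0.41 without IVO MII replicate 1 and -8.91 without IVO MII replicate 2.

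ITGA6, a laminin receptor chain that pairs with ITGB1 and ITGB4 (chromosome 12, bases 61360636 to 61439992), had the highest group mean per exon length of the alpha chains in each group. In GV it lay above ITGA4 in both libraries, though their means lay within their spread. In IVM MII replicate 3 ITGAE lay above it. Levels were 15.2 and 16.9 CPM in GV, 87.4 and 61.3 CPM in IVO MII, with 201, 231 and 88.3 CPM in IVM MII. All MII libraries lay above GV, and IVM MII replicate 3, at 88.3 CPM, lay just above the higher IVO MII library while the other IVM MII libraries lay far above it. The means were 16.0 ± 1.23 CPM in GV, 74.4 ± 18.4 in IVO MII, with 173 ± 75.1 in IVM MII. The log2 fold change was 2.21 (SE 0.49) for IVO MII over GV, 3.44 (SE 0.50) for IVM MII over GV and 1.22 (SE 0.45) for IVM over IVO MII.

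ITGA2, the alpha chain of a collagen receptor (chromosome 6, bases 52379134 to 52484761), was low throughout. It stood at 0.363 and 0.126 CPM in GV, 1.48 and 0.308 in IVO MII, with 0.698, 4.27 and 3.31 in IVM MII. IVM MII lay above GV, and IVO MII overlapped each of the others. On the log2 scale ITGA2 differed by 1.84 (SE 1.25) for IVO MII over GV, 3.47 (SE 1.27) for IVM MII over GV and 1.63 (SE 1.15) for IVM over IVO MII. Without IVO MII replicate 1 the first of these was 0.32 and the last 3.15, and without GV replicate 1 the first was 2.74, so they rest on single libraries. Its neighbour ITGA1, another collagen receptor chain that ends 28.8 kb before ITGA2 on the same strand, had 0 counts in every library.

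ITGA4 and ITGA9 are related alpha chains that bind VCAM1 and fibronectin (ITGA4) or tenascin and ADAM proteins (ITGA9), and their levels in the 2 kinds of MII oocyte had opposite orders. ITGA4 (chromosome 12, bases 70437441 to 70516826) stood at 11.1 and 14.5 CPM in GV, 8.56 and 3.55 CPM in IVO MII, with 25.4, 29.3 and 33.3 CPM in IVM MII. The groups did not overlap, with IVO MII lowest, GV between and IVM MII highest. The log2 fold change was -1.09 (SE 0.51) for IVO MII over GV, 1.19 (SE 0.47) for IVM MII over GV and 2.28 (SE 0.50) for IVM over IVO MII. For IVO MII over GV the value was -1.86 without IVO MII replicate 1 and -0.59 without IVO MII replicate 2.

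ITGA9 (chromosome 2, bases 92307639 to 92697637, the longest span of the 10 genes at 389999 bases) stood at 8.17 and 7.08 CPM in GV, 37.5 and 42.6 CPM in IVO MII, with 9.23, 9.80 and 13.7 CPM in IVM MII. The groups did not overlap here either, but IVO MII was highest and IVM MII lay close to GV. On the log2 scale ITGA9 differed by 2.39 (SE 0.44) for IVO MII over GV, 0.52 (SE 0.38) for IVM MII over GV and -1.88 (SE 0.37) for IVM over IVO MII. IVM MII thus had 29.3 ± 3.97 CPM of ITGA4 and 10.9 ± 2.40 CPM of ITGA9 (n = 3), and IVO MII had 6.05 ± 3.55 CPM of ITGA4 and 40.1 ± 3.63 CPM of ITGA9 (n = 2).

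**Figure D1:**
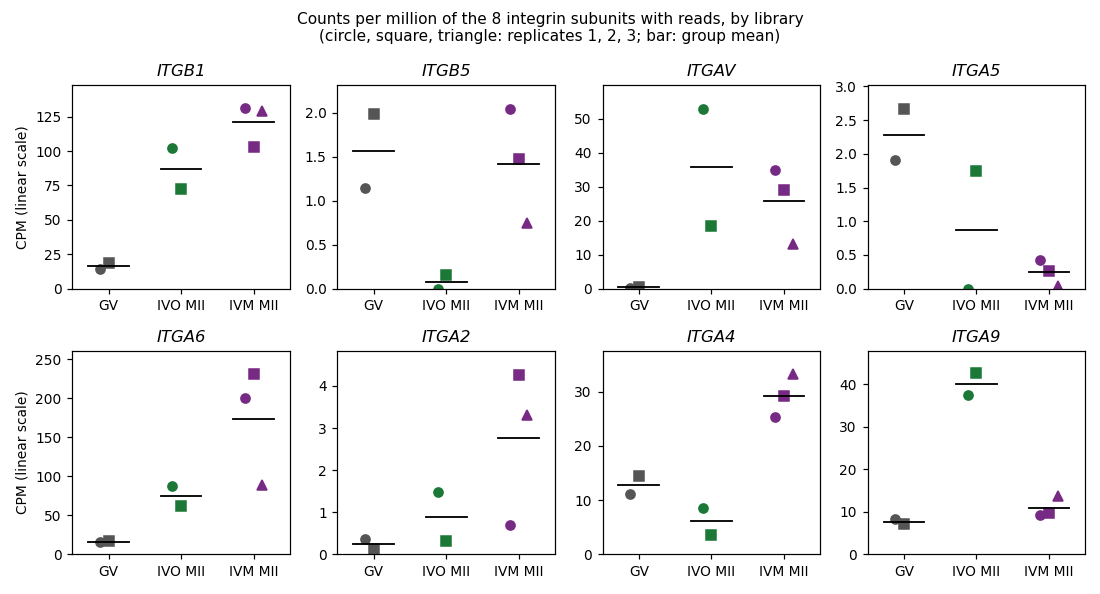
Level of each of the 8 integrin subunits with counts, in CPM on a linear axis that differs between panels, for GV, IVO MII and IVM MII libraries. Each point is 1 library and each bar a group mean; ITGAV stands at 0.151 and 0.506 CPM in GV and at 13.1 CPM or more in MII, and ITGA4 and ITGA9 show opposite orders of IVO and IVM MII.

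Some of these rows share sequence with other genes of the table, and the strand setting of the counting is not given in the sources used here. CERKL overlaps the span of ITGA4 on the other strand but shares 0 exon bases with it. For ITGA6, an unnamed locus on the other strand shares 52 exon bases (0.925% of its exon length), and had 73 to 490 counts a library against 501 to 5457 for ITGA6. The unnamed locus was also highest in IVM MII replicates 1 and 2. ITGAV, ITGB1, ITGB5, ITGA2 and ITGA5 overlapped no other row, and the rows inside the span of ITGA9 had 0 counts. ITGA6, ITGA4 and ITGAV all lie on chromosome 12, and they differed in order between the groups.

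Levels of different subunits were compared per exon length, as CPM per kb. In GV the beta chain ITGB1 stood at 3.85 ± 0.752 CPM per kb (n = 2). Among the 18 alpha genes ITGA6 led in GV with 2.85 ± 0.218 CPM per kb, followed by ITGA4 with 2.37 ± 0.443, and these did not differ beyond their spread. In IVO MII ITGA6 stood at 13.2 ± 3.28 CPM per kb, ITGA9 at 5.23 ± 0.474 and ITGAV at 4.42 ± 3.01, the last pair within their spread, and ITGAE, which is outside the set, at 10.2 ± 0.285. In IVM MII ITGA6 stood at 30.9 ± 13.4 CPM per kb, ITGAE at 17.3 ± 3.20, ITGA4 at 5.43 ± 0.734, ITGAV at 3.19 ± 1.40 and ITGA9 at 1.42 ± 0.314, and ITGB1 at 28.3 ± 3.65.

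As a share of the summed CPM per kb of all 18 alpha genes, ITGA6 held 30.0% and 28.4% in GV, 38.8% and 34.7% in IVO MII, with 53.4%, 62.1% and 35.5% in IVM MII. ITGA4 held 22.9% and 25.3% in GV, 3.96% and 2.09% in IVO MII, with 6.99%, 8.21% and 13.9% in IVM MII. ITGA9 held 11.9% and 8.72% in GV, 12.2% and 17.7% in IVO MII, with 1.79%, 1.94% and 4.03% in IVM MII. ITGAV held 0.209% and 0.593% in GV, 16.4% and 7.30% in IVO MII, with 6.48%, 5.44% and 3.68% in IVM MII. ITGAE, outside the set, held 15.3% to 19.8% in GV, 26.1% to 31.9% in IVO MII and 30.0%, 21% and 40.6% in IVM MII, where it lay above ITGA6 in replicate 3. The share of ITGA4 was thus highest in GV, while its level was highest in IVM MII.

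**Figure D2:**
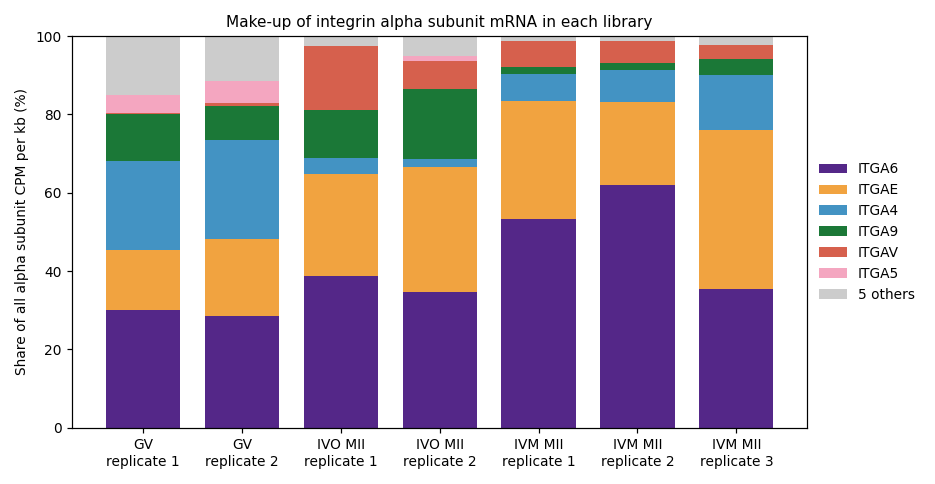
Share of each alpha subunit in the summed CPM per kb of all 18 alpha subunit genes, in percent, with 1 stacked bar a library and the other 5 genes with counts pooled. ITGA6 holds 28.4% to 62.1% of a library, ITGA9 is a broader band in GV and IVO MII than in IVM MII, and ITGAV is nearly absent from the GV bars.

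Among the 8 beta genes, ITGB1 held 87.4% and 84.7% of the summed CPM per kb in GV, 99.9% and 99.7% in IVO MII, with 98.3% to 98.8% in IVM MII. ITGB5 and ITGB4 gave the rest, since the other 5 beta genes were at 0 in all libraries. The summed alpha level was 8.99 and 10.6 CPM per kb in GV, 40.0 and 31.5 in IVO MII, with 44.2 to 67.1 in IVM MII. The ratio of summed alpha to summed beta level was 1.45 to 2.69 in the 7 libraries, and the GV values of 2.37 and 2.05 lay within the range of the MII libraries.

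The 16 integrin genes outside the set gave 6 with counts, and 10 at 0 in every library: ITGA1, ITGA7, ITGA10, ITGA11, ITGAD, ITGAM, ITGAX, ITGB2, ITGB6 and ITGB7. ITGAE, known as the alpha chain of a lymphocyte receptor for E-cadherin (chromosome 16, bases 3637679 to 3729316), was the only 1 of the 6 tested genes that passed the edgeR test in any comparison. It stood at 6.23 and 9.52 CPM in GV, 47.3 and 45.5 CPM in IVO MII, with 91.4, 62.8 and 81.5 CPM in IVM MII, with no overlap between the groups. It rose from GV by 2.56 on the log2 scale in IVO MII (SE 0.40, edgeR adjusted p = 0.00342) and in IVM MII by 3.32 (with an SE of 0.40, edgeR adjusted p = 0.00144). Between IVM and IVO MII its log2 fold change was 0.76 (SE 0.35, edgeR adjusted p = 0.255). It passed the test against GV in every alternative fit. ITGB7, its known beta partner, was among the genes at 0. GSG2 lies in its span on the other strand and shares 0 exon bases with it.

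The remaining 5 were low and passed no test in the reported fit. ITGAL, a leukocyte chain whose partner ITGB2 was at 0, had 105 and 39 counts in GV, 50 and 155 in IVO MII, with 24, 4 and 24 in IVM MII (-2.44 on the log2 scale for IVM over IVO MII, SE 0.96, edgeR adjusted p = 0.196). ITGA8 had 80 and 133 counts in GV and 14 to 44 in the MII libraries. ITGB4, the partner of ITGA6 in hemidesmosomes, had 38 and 54 counts in GV, 2 in each IVO MII library, and 0, 0 and 30 in IVM MII. In alternative fits it was called lower than GV in 2 of 13 for IVM MII, among them the fit without IVM MII replicate 3, and in 1 of 14 for IVO MII. ITGA2B, the platelet chain, had 0 to 35 counts a library and ITGA3 had 1 to 18.

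Between IVO MII and GV, 4 of the 8 tested genes of the set (ITGAV, ITGB1, ITGA9 and ITGA6) were called higher and 0 lower by edgeR at an adjusted p under 0.05, and 28.1% of all 16374 tested genes were called in either direction (14.6% higher). Nothing is read from that difference, since the set was put together with this comparison in view. The libraries of the groups did not overlap for 7 of the 8, against 72.8% of all tested genes. The median log2 fold change was 2.02, and -0.16 over all tested genes. ITGA6 and ITGA9 did not keep their calls without GV replicate 1 or 2, where fewer of all tested genes were called too. Their log2 fold changes were then 2.12 and 2.28 for ITGA6, and 2.48 and 2.28 for ITGA9. Without IVO MII replicate 1 the value of ITGA6 was 1.92, with its call not kept, and that of ITGA4 was -1.86. Without IVO MII replicate 2, which leaves 0 IVO MII counts of ITGA5 and ITGB5, their values were -8.91 and -8.37.

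Between IVM MII and GV, 3 of the 8 (ITGAV, ITGA6 and ITGB1) were called higher and 0 lower, with 36.3% of all tested genes called in either direction (18.5% higher). The set was put together with this comparison in view too, and nothing is read from these counts. The libraries did not overlap for 7 of the 8, against 69.1% of all tested genes. The median log2 fold change was 2.04, and -0.10 over all tested genes. The comparisons with GV share the GV libraries. Leaving out IVO MII replicate 1 or 2, which belong to neither group compared but enter the fit, gave set medians of 2.03 and 1.95. The medians over all tested genes were then -0.122 and -0.205. With the IVO MII libraries out of the fit altogether, 6 of the 8 were called (5 higher, 1 lower), beside 6853 of 15929 tested genes. Nothing is read from that count either.

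Between IVM and IVO MII, 0 of the 8 were called by edgeR, with 1.47% of all tested genes called (0.892% higher and 0.58% lower). The set was chosen with these values in view as well, so the counts that follow describe how the fits differ and test nothing. At an unadjusted p under 0.05 there were 4 of the 8, against 3460 of all 16374 tested genes. DESeq2 called 3, with ITGA4 and ITGB5 higher and ITGA9 lower in IVM MII, against 2041 of 21727 genes in that fit. The libraries of the groups did not overlap for 5 of the 8 (4 higher, 1 lower), against 33.8% of all tested genes. Over 14 alternative fits the log2 fold change was -2.09 to -1.77 for ITGA9 (past the threshold in 7), 1.69 to 3.05 for ITGA4 (in 5) and 0.89 to 1.54 for ITGA6 (in 2). Without IVM MII replicate 3 ITGA6 and ITGA9 were called, beside 1277 of 16189 tested genes, against 241 of 16374 in the reported fit. Without IVM MII replicate 1 or 2, 0 of all tested genes were called, so none of the 8 could be. Without IVO MII replicate 1, which leaves 1 IVO MII library, the log2 fold change of ITGA4 was 3.05.

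**Figure D3:**
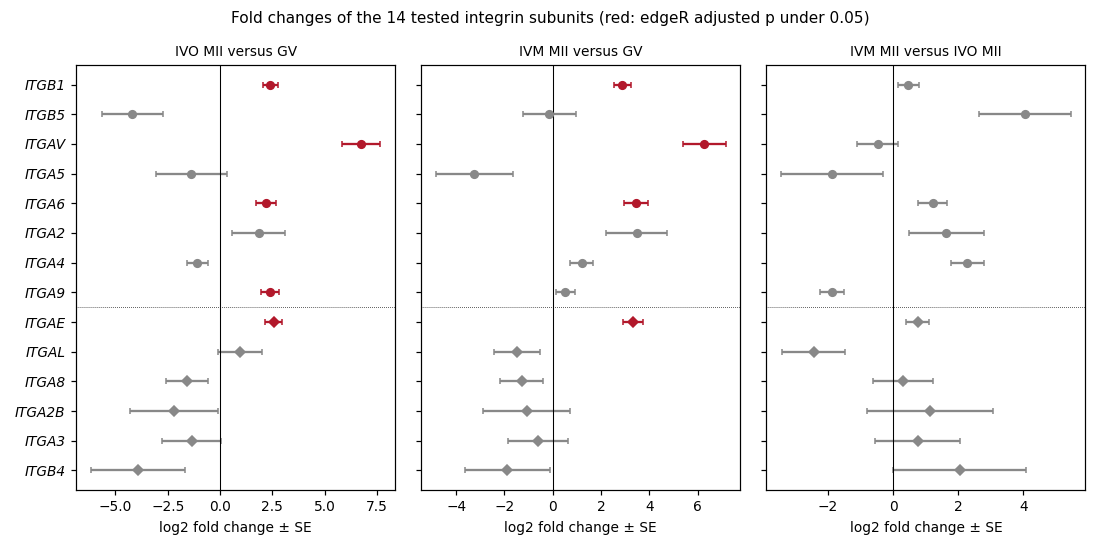
Log2 fold change with its standard error for the 14 tested integrin subunits in the 3 comparisons, with the set above the dotted line and the other subunits below it; red points had an edgeR adjusted p under 0.05. ITGAV lies far to the right in both comparisons with GV (6.75 and 6.27), and in the right panel ITGA4 and ITGA9 lie on opposite sides of 0 (2.28 and -1.88).

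**Figure D4:**
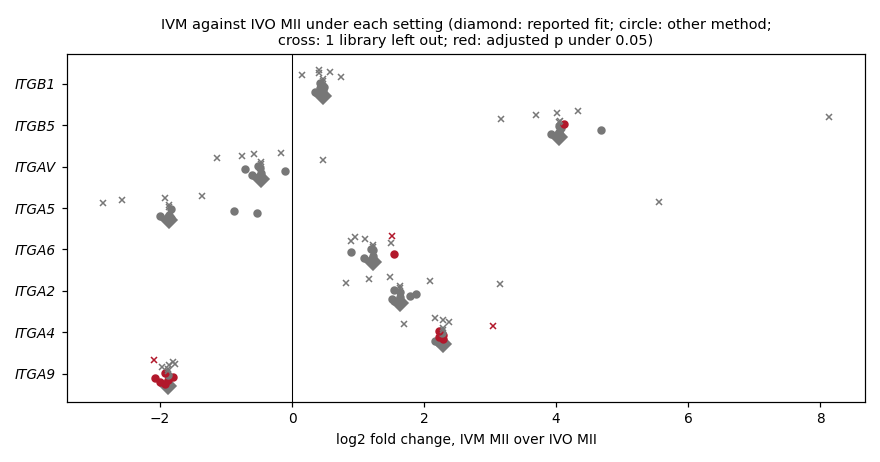
Log2 fold change of IVM over IVO MII for the 8 subunits with counts, under the reported fit (diamond), 7 other methods (circles) and 7 fits that each leave out 1 library (crosses), red where the adjusted p was under 0.05. ITGA9 stays between -2.09 and -1.77 and ITGA4 between 1.69 and 3.05, while ITGAV and ITGA5 cross 0 when 1 IVO MII library is left out.

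Across the 7 libraries, the genes whose log2(CPM + 1) ran most like ITGAV, among 8962 tested genes with a symbol and at least 5 CPM in a group, were TMEM167B (Pearson r = 0.9985), SMNDC1 (0.9982), NUP58 (0.9978), PPM1A (0.9974) and SAP30 (0.9973). NUP58, a nuclear pore gene, for example stood at 33.6 and 34.5 CPM in GV, 419 and 207 in IVO MII, with 281, 251 and 167 in IVM MII. For ITGB5, whose profile rests on few counts, they were GOLPH3L (0.9746), PRKRA (0.9731), GNPNAT1 (0.9685), CHMP3 (0.9668) and SYPL1 (0.9653), each lower in both IVO MII libraries than in the other 5. Within the set the closest pairs over the 7 libraries were ITGAV with ITGB1 (r = 0.943) and ITGB1 with ITGA6 (0.925), and the most opposed was ITGB5 with ITGA9 (-0.944). All these values describe 7 libraries whose main split is GV against MII.

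Of the matrix ligands and latent TGF-beta genes, 37 of 39 were found and 21 tested. From GV to IVO MII 4 rose and 2 fell, and to IVM MII 5 rose and 3 fell (edgeR adjusted p under 0.05). These are 28.6% and 38.1% of the list, near the 28.1% and 36.3% of all tested genes. FN1, which encodes fibronectin, rose from 1.21 and 1.26 CPM in GV to 7.19 and 15.3 in IVO MII (by 3.18 on the log2 scale, SE 0.72, edgeR adjusted p = 0.013), and to 3.86, 5.24 and 9.93 in IVM MII (2.36 on the log2 scale, SE 0.67, edgeR adjusted p = 0.025). LTBP1, which holds latent TGF-beta in the matrix, rose by 2.59 and 2.97. LAMC1, the laminin gamma chain, rose by 3.17 in IVO MII, from 4.29 and 4.62 to 47.2 and 33.1 CPM, and also lay above GV in IVM MII (25.4, 17.8 and 17.4 CPM). ADAM9, which encodes a membrane protease known to bind integrins, rose by 2.90 in IVM MII. It also lay above GV (7.53 and 8.92 CPM) in IVO MII, at 55.5 and 29.3 CPM.

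The laminin chain gene LAMA3 fell from 4.75 and 6.36 CPM in GV to 0 counts in either IVO MII library. This was at least 41.4-fold lower, taking 3 counts in each library as the floor. LAMA3 also fell in IVM MII, to 0.107, 0.0423 and 0.15 CPM. These lie near or below the level of 3 counts, so the size of this fall (-5.72 on the log2 scale, SE 0.98) is poorly measured. ADAM12, another integrin-binding ADAM, fell from 39.2 and 41.0 CPM to 7.13 and 9.99 in IVO MII (-2.23) and to 3.86, 4.94 and 5.72 in IVM MII (-3.05). The list medians were 0.79 and 0.50 against GV. Without GV replicate 1 or 2 only 2 ligand genes passed in each of these comparisons, and without IVO MII replicate 1 the IVO MII count was 4.

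Of the adaptors and adhesion signalling genes, 51 of 52 were found and 43 tested. From GV to IVO MII 8 rose and 5 fell, and to IVM MII 7 rose and 6 fell, with medians of 0.09 and -0.41. Those called were 30.2% of the list each time, against 28.1% and 36.3% of all tested genes. With RLE scaling (size factors of the DESeq2 type) 6 rose and 9 fell in IVM MII, and the IVO MII median was -0.03. The small GTPase gene RAP1A, which acts in talin recruitment, rose from 5.32 and 8.19 CPM in GV to 64.6 and 28.9 in IVO MII (2.79, SE 0.52, edgeR adjusted p = 0.00622) and to 51.3, 63.7 and 38.7 in IVM MII (2.92 on the log2 scale, SE 0.51, edgeR adjusted p = 0.00344). The Src family kinase gene YES1 rose by 2.64 and 2.89. CRK, an adaptor of focal adhesions, rose by 2.63 in IVO MII, and the kindlin gene FERMT1 rose by 2.04 in IVM MII. CRK also lay above GV (27.4 and 40.2 CPM) in IVM MII, at 122, 115 and 154 CPM, while FERMT1 in IVO MII overlapped GV.

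Among the genes that fell, ITGB1BP1, which encodes the ITGB1 tail binder ICAP1, fell from 63.7 and 74.0 CPM in GV to 5.30 and 1.81 in IVO MII (-4.28, SE 0.60, edgeR adjusted p = 0.00264). In IVM MII it stood at 17.6, 12.3 and 11.9 CPM, also below GV. SHARPIN, whose product holds integrins inactive and acts in ubiquitin signalling, fell from 11.6 and 7.68 CPM in GV to 0 and 0.154 in IVO MII (-6.78, SE 1.43). In IVM MII it stood at 0.537, 1.35 and 0.188 CPM (-3.79, SE 1.01). The size of its fall in IVO MII rests on few counts, all in replicate 2. LIMS2, a partner of integrin-linked kinase, fell by 5.22 and 3.84, and HAX1, a mitochondrial and trafficking factor, fell by 4.56 in IVM MII. HAX1 also lay below GV (27.8 and 36.0 CPM) in IVO MII, at 3.36 and 1.85 CPM. Without GV replicate 1 the 13 calls of this list became 5 in IVO MII, with 4 in IVM MII, without GV replicate 2 they became 8 and 7, and without IVM MII replicate 1 the IVM MII count was 8.

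Of the 14 membrane partners all were found and 12 tested. From GV to IVO MII 1 rose and 3 fell, and to IVM MII 2 rose and 1 fell, with medians of -1.78 and -0.92. Those called were 33.3% and 25% of the list, against 28.1% and 36.3% of all tested genes, and with RLE scaling 1 rose and 2 fell in IVM MII. IZUMO1R, the egg receptor of the sperm protein IZUMO1, fell from 151 and 90.5 CPM in GV to 10.5 and 20.3 in IVO MII (-2.97, SE 0.92, edgeR adjusted p = 0.0426) and to 0.751, 3.55 and 8.95 in IVM MII (-4.76 on the log2 scale, SE 0.85, edgeR adjusted p = 0.00382). CAV1, which encodes caveolin, rose by 2.96 and 1.76. CD47, an integrin-associated membrane protein gene, rose by 1.97 in IVM MII and overlapped GV in IVO MII. CD63, an endosomal tetraspanin gene, fell by 1.98 in IVO MII, from 65.4 and 23.3 CPM in GV to 10.4 and 12.1. In IVM MII it overlapped GV (21.1, 25.9 and 31.1 CPM). The egg tetraspanin gene CD9 fell by 1.69 in IVO MII, from 55.6 and 69.3 CPM in GV to 23.0 and 15.8. In IVM MII it lay above GV, at 94.4, 113 and 94.9 CPM, without a call. CD9 was the 1 gene of this list called between IVM and IVO MII, where IVM MII was higher (2.38, SE 0.36, edgeR adjusted p = 0.0271). Of 13 other edgeR fits, 7 kept the call.

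The membrane partner counts moved with single libraries, as did the counts of all tested genes. In IVO MII against GV, the 4 calls became 1 without GV replicate 1, 2 without GV replicate 2, 2 without either IVO MII replicate, and 5 without IVM MII replicate 1 or 3. In IVM MII against GV the 3 calls became 2 without IVM MII replicate 1 or 2, beside 4239 of 16269 and 4641 of 16170 tested genes. Without either GV replicate fewer partners and fewer of all tested genes were called, with list medians of -0.487 and -1.34. Without either IVO MII replicate more of both were called, with medians of -1.08 and -1.16.

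Of the processing and trafficking genes all 29 were found and 24 tested. From GV to IVO MII 5 rose and 3 fell, and to IVM MII 7 rose and 2 fell, with medians of -0.14 and 0.12 (-0.01 with RLE scaling for the last). Those called were 33.3% and 37.5% of the list, against 28.1% and 36.3% of all tested genes. RAB5A, an early endosome GTPase gene, rose from 48.4 and 65.0 CPM in GV to 294 and 130.0 in IVO MII (1.90, SE 0.50, edgeR adjusted p = 0.0231) and to 461, 368 and 221 in IVM MII (2.63 on the log2 scale, SE 0.49, edgeR adjusted p = 0.00453). RAB21, whose product binds integrin alpha tails, rose by 2.91 in IVM MII, and the recycling gene RAB11FIP1 rose by 3.03. SNX27 and STX3, of endosome and membrane traffic, rose by 2.62 and 2.17 in IVO MII. SNX17, which recycles integrins by their beta tails, fell by 2.95 in IVM MII. RAB21, RAB11FIP1 and SNX17 lay on the same side of GV in IVO MII too, and SNX27 and STX3 in IVM MII, with no overlap.

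CALR, which encodes calreticulin, fell by 2.30 in IVO MII, with 1.89 in IVM MII. PCSK5, a proprotein convertase gene, fell by 1.65 in IVO MII and ARF6, a recycling GTPase gene, by 1.27. In IVM MII PCSK5 also lay below GV with no overlap, while ARF6 overlapped GV. The 8 calls of this list in IVO MII were all lost without GV replicate 1 or 2, and some were lost without IVO MII replicate 1. Fewer of all tested genes were called in these 3 fits too. The list medians were then -0.305, 0.0163 and -0.142. DESeq2 on all libraries called 15 genes of the list, beside 6269 of 21727 genes. In IVM MII fewer than the 9 genes, and fewer of all tested genes, were called without GV replicate 1 or 2. The list medians there were 0.00749 and 0.244.

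Between IVM and IVO MII 1.47% of all tested genes were called by edgeR. An unadjusted p under 0.05 was reached by 3460 of the 16374, and DESeq2 called 2041 of 21727 genes. DESeq2 was run without the filter on low counts, so its counts are out of more ligand, adaptor, partner and trafficking genes than the numbers tested by edgeR. Called by edgeR in the lists were 0 of 6 other integrin subunits (1 at an unadjusted p under 0.05, 0 by DESeq2), 0 of 21 ligand genes (3 and 1), 0 of 43 adaptor genes (9 and 4), 1 of 12 membrane partners (4 and 2) and 0 of 24 trafficking genes (8 and 7). The genes with the smallest p-values among those not called were FBN1, the fibrillin gene (log2 fold change -1.25, SE 0.35, edgeR adjusted p = 0.103), ELMO1, which acts with DOCK1 in Rac activation (-1.54, SE 0.39, edgeR adjusted p = 0.0808), and the vesicle gene VAMP3 (1.45, SE 0.32, edgeR adjusted p = 0.0589). ELMO1 stood at 162 and 155 CPM in GV, 170.0 and 189 in IVO MII, with 42.9, 46.3 and 95.8 in IVM MII. Without IVM MII replicate 3 there were 4 calls among the adaptors and 5 among the trafficking genes, beside 1277 of all 16189 tested genes. Without IVO MII replicate 1 more adaptors, membrane partners and genes in all were called. The CD9 call was lost without either GV replicate, without IVO MII replicate 2, and without IVM MII replicate 1 or 2. Fewer of all tested genes were called in each of these fits. Without IVM MII replicate 1 or 2 the count in all was 0, so no gene could keep a call.

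**Figure D5:**
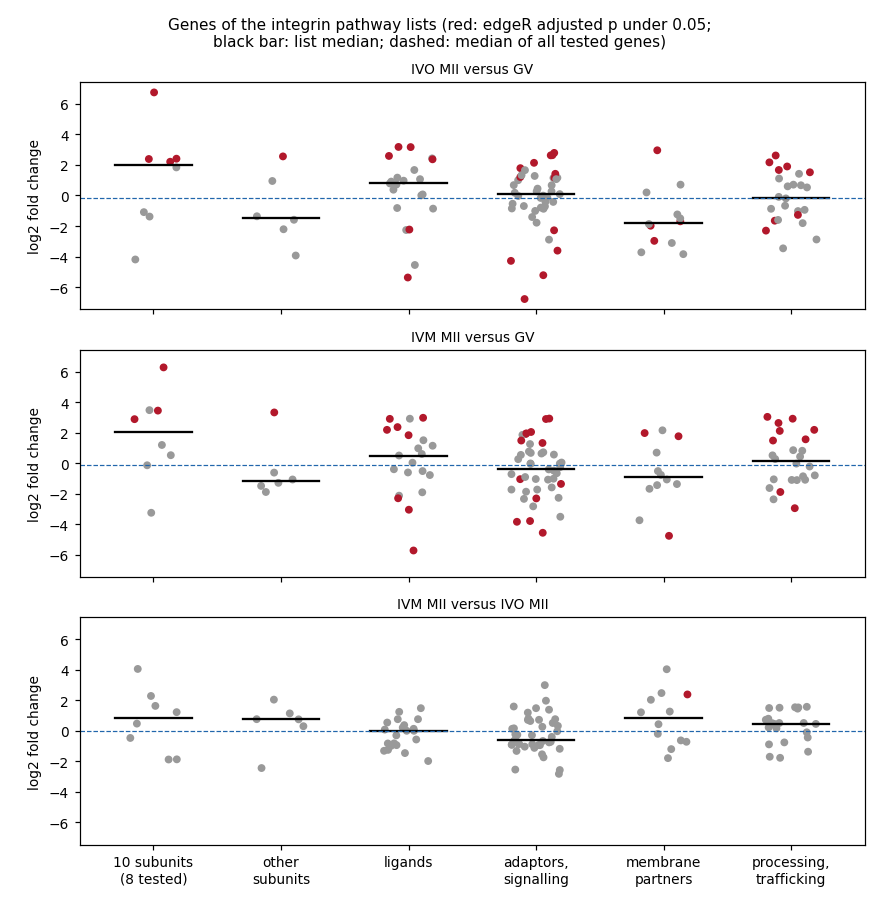
Log2 fold change of every tested gene of the set and of the 5 lists, with 1 panel a comparison; red points had an edgeR adjusted p under 0.05, black bars are list medians and the dashed line is the median of all tested genes. Genes with 0 counts in a group are drawn at the bound that 3 counts in each library give; against GV, called genes lie on both sides of 0 in each list other than the integrin subunits, and 1 point (CD9) is red in the bottom panel.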

How the data were processed

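The authors deposited unnormalized counts per gene for 7 oocyte libraries. Named in the submitters' processing notes are featureCounts 2.0.1, SAMtools 1.15.1, Bowtie2 2.4.5, Trim Galore 0.6.7 and DESeq2. Build, strand setting and the handling of multi-matching reads: not given in the sources used here. Since Bowtie2 makes no spliced alignments, reads over exon junctions can be lost. Exon lengths are those of the deposited table. Broken lines (10, of 3 genes) were left out, and 26 gene names turned into dates stayed without a symbol. Of 11294 rows named by a locus identifier, 5013 matched RefSeq gene identifiers, used for names only.

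Counts were compared with edgeR 4.0.16 (glmQLFit and glmQLFTest, TMM scaling, filterByExpr, R 4.3.3), 7 libraries in 1 fit, two-sided, adjusted by Benjamini-Hochberg over all 16374 tested genes and called at 0.05. All adjusted p-values are from that fit unless another tool is named. SEs are the log2 fold change over the root of the F statistic. Alternatives were DESeq2 1.42.0, other scalings, no filter, a replicate block, fits of the compared groups and leaving out each library. The code was tested on simulated data. CPM per kb divided CPM by exon length. The 10 genes and all lists were chosen with earlier results of these data known. Named from a list were up to 3 called genes a direction, with the highest absolute fold changes, with no overlap of libraries and a higher group of 5 CPM or more, or the smallest p where none was called between IVM and IVO MII. A gene named for 1 comparison can have differed in another too. Likeness was computed for the genes of the set with the highest and lowest fold change from GV to IVO MII. Members of the lists absent by symbol (CCN1, CCN2 and PARVB) were left out. Sequences were not used here.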

Additional observations from a re-analysis of the deposited data

How the results depend on the processing

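With 2 or 3 libraries a group, and 0.0907 to 0.161 CPM as the level of 3 counts, scarce subunits (ITGB5, ITGA2, ITGA5) are poorly measured. Fold changes of the 8 subunits stayed within 1 SE of the reported value in 313 of 327 alternative values and moved further in 14, and 0 called ones changed sign. CPM per kb under RLE scaling (DESeq2's size factors) moved by less than the SD in all 24 group means. For the other named genes, counting each gene in each comparison and alternative (1513 values), a call was lost in 98 and gained in 40. RLE scaling shifted the all-gene median from -0.10 to -0.24 on the log2 scale for IVM MII over GV and from -0.16 to -0.26 for IVO MII over GV. Upper quartile scaling shifted it to -0.21 for IVM MII over GV and from 0 to -0.11 for IVM over IVO MII, where it gave 127 higher and 125 lower calls against 146 and 95.

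Counts of calls that moved by more than 1.5 times were as follows, and the cause was not tested. In fits of only the groups compared, 2 other subunits were called for IVO MII over GV, 6 of the set and 5 membrane partners for IVM MII over GV, and, for IVM over IVO MII, 54 genes in all and 0 membrane partners (3 at an unadjusted p under 0.05). DESeq2 called 7 membrane partners and 15 trafficking genes for IVO MII over GV and 5 membrane partners for IVM MII over GV. For IVM over IVO MII it called 2041 genes in all, 3 of the set, 1 ligand gene, 4 adaptors, 2 membrane partners and 7 trafficking genes. Without the filter on low counts that comparison had 731 calls in all, 2 in the set, 1 adaptor and 3 trafficking genes, and RLE and upper quartile scaling each gave 1 in the set.

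Deviations of same-numbered libraries from their group means correlated at -0.234 to 0.353. In a group of 2 libraries these deviations are mirror images, so the values are tied and cannot settle whether the numbers pair libraries. The replicate numbers were not taken as pairs. With the replicate number as a block, 2 other subunits were called for IVM MII over GV. For IVM over IVO MII the block gave 1238 calls in all, 3 in the set, 3 adaptors, 2 membrane partners and 5 trafficking genes. The submitters' description of IVO MII replicate 2 numbers it 3, and by those numbers both IVO and IVM MII pairs correlated positively (0.353 and 0.406). These 2 values are tied in the same way and do not settle a pairing. A block on those numbers, also chosen after seeing the data, gave 832 calls in all, 2 in the set, 2 adaptors and 3 trafficking genes for IVM over IVO MII. With the 2 GV numbers crossed in the block, an alternative chosen after seeing the data, IVO MII over GV had 5623 calls in all, 4 in the set and 14 trafficking genes.

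Leaving out 1 library at a time, with an arm of 1 library assumed to vary like the other groups, gave ranges of calls. For IVO MII over GV these were 1484 to 5517 in all, 2 to 6 in the set, 1 to 1 among other subunits, 2 to 8 ligands, 5 to 14 adaptors, 1 to 5 membrane partners and 0 to 11 trafficking genes. For IVM MII over GV they were 2110 to 6716, 3 to 6, 1 to 2, 2 to 9, 4 to 15, 1 to 5 and 3 to 11 in the same order. For IVM over IVO MII they were 0 to 1277, 0 to 2, 0 to 0, 0 to 0, 0 to 4, 0 to 2 and 0 to 5. The count in all was 0 without IVM MII replicate 1 or 2 (2703 and 2549 at an unadjusted p under 0.05) and 1277 without IVM MII replicate 3.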
